A study of Homo sapiens with 8 samples.

Results

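The HOX gene clusters were described by the regions of accessible chromatin that fell within 4 windows of build hg19. The HOXA window ran from 27120000 to 27260000 on chromosome 7 (140 kb) and the HOXB window from 46590000 to 46820000 on chromosome 17 (230 kb). The HOXC window ran from 54320000 to 54460000 on chromosome 12 (140 kb) and the HOXD window from 176940000 to 177060000 on chromosome 2 (120 kb). A region was a set of peaks from any of 8 libraries joined where they overlapped by 1 bp or more, and each library was said to call the regions in which it had a peak. Of the 80588 regions of chromosomes 1 to 22 and X, 51 overlapped a window: 22 in HOXA, 10 in HOXB, 10 in HOXC and 9 in HOXD.

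HOX genes encode homeodomain transcription factors that give cells their position along the body axis, often in complexes with PBX and MEIS proteins. Within a cluster they stand in the order of the body levels they specify, from genes of the hindbrain and neck at one end to the group 13 genes of the limbs, genital tract and tail region at the other. Active clusters carry open chromatin and silent parts are held closed by Polycomb complexes, and HOX genes have been reported as active in many squamous carcinomas of the mouth.

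Open chromatin was mapped by ATAC-seq, a method that lets the Tn5 transposase cut exposed DNA and tag it for sequencing. KOSC-2 and HSC-3 are established cell lines of oral squamous cell carcinoma, the former labelled radiosensitive and the latter radioresistant. The cells received 0 or 8 Gy of radiation and were frozen after 24 hours. Each of the 4 groups had 2 libraries, and the stated aim was to compare the lines across the genome with and without irradiation. One line stands for each class, and it is not stated whether the libraries of a group are separate cultures. P-values therefore reflect the spread among these libraries alone. All cells shared the same growth medium, and no genotype or added agent is named.

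The 8 peak lists held 22504 to 51693 peaks. The shortest belonged to the HSC-3 libraries 0 Gy replicate 2 (23490 peaks) and 8 Gy replicate 1 (22504 peaks), and the other 6 held at least 38234. Median enrichment at the regions called in all libraries was 21.9 in HSC-3 8 Gy replicate 1, 25.7 in KOSC-2 0 Gy replicate 1 and 34.7 in HSC-3 0 Gy replicate 2, against 49.6 to 67.3 in the others. Depth, read from the genome-wide background of each list, was 20.2 to 64.8 reads per 10 kb. No peak had fewer than 5 to 9 reads at its summit, depending on the list, so weaker regions were not detectable. Counts below are given with and without these libraries where they moved.

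Sequence of the regions was not read, because the reference used here is of another build, and no region was assigned to a gene. Promoters of RefSeq (build GRCh38.p14, 250 bases before to 50 after the start) are given as examples of sequence from the clusters. Of the 38 HOX genes considered, 20 matched, with 27 promoters. The same 300 bases are entered for HOXC4 and for HOXC5, HOXA3 has several entries, and HOXB has only that of HOXB1. The 27 promoters so counted held a median of 22 CG dinucleotides in 300 bases, with a range of 0 to 44. The median over 35116 promoters was 14. The HOXA13 promoter had the most CG of the 27, 44, shown in capitals (GRCh38.p14, chr7:27200042-27200341, minus strand). HOXB1 acts in the hindbrain and its upstream sequence is a classical target of PBX and HOX proteins. Its promoter (GRCh38.p14, chr17:48530962-48531261, minus strand) held 11 CG and 1 match to TGATNNAT, a PBX-HOX site motif searched on both strands, in capitals. That motif occurred in 3 of the 27 promoters (11.1%) and in 7.4% of all promoters of that length. These positions are not comparable with the hg19 ones used elsewhere, so no peak could be placed on either sequence, and a match in letters is a description only.
HOXA13: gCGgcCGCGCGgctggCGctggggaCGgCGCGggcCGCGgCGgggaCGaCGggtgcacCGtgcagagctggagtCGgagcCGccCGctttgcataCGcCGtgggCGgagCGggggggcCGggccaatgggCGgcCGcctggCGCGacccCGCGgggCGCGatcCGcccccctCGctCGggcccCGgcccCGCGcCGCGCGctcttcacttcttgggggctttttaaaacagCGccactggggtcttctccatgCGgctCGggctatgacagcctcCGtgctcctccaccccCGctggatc
HOXB1: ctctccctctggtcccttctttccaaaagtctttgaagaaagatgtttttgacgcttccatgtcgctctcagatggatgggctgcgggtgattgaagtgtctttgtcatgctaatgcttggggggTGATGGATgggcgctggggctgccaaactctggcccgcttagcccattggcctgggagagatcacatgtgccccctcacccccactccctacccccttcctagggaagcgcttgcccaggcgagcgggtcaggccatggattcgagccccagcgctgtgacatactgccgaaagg

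Every library called peaks in all 4 clusters. HOXA held 4 to 14 peaks a library, HOXB 2 to 7, HOXC 3 to 7 and HOXD 3 to 7. Positions are given below as the distance from the edge of the window on the side of the group 13 gene (HOXA13, HOXB13, HOXC13 or HOXD13), and the order of genes, though not their place, was taken from the annotation. In HOXA and HOXB the group 13 gene lies at the high coordinate, and in HOXC and HOXD at the low one.

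**Figure D1:**
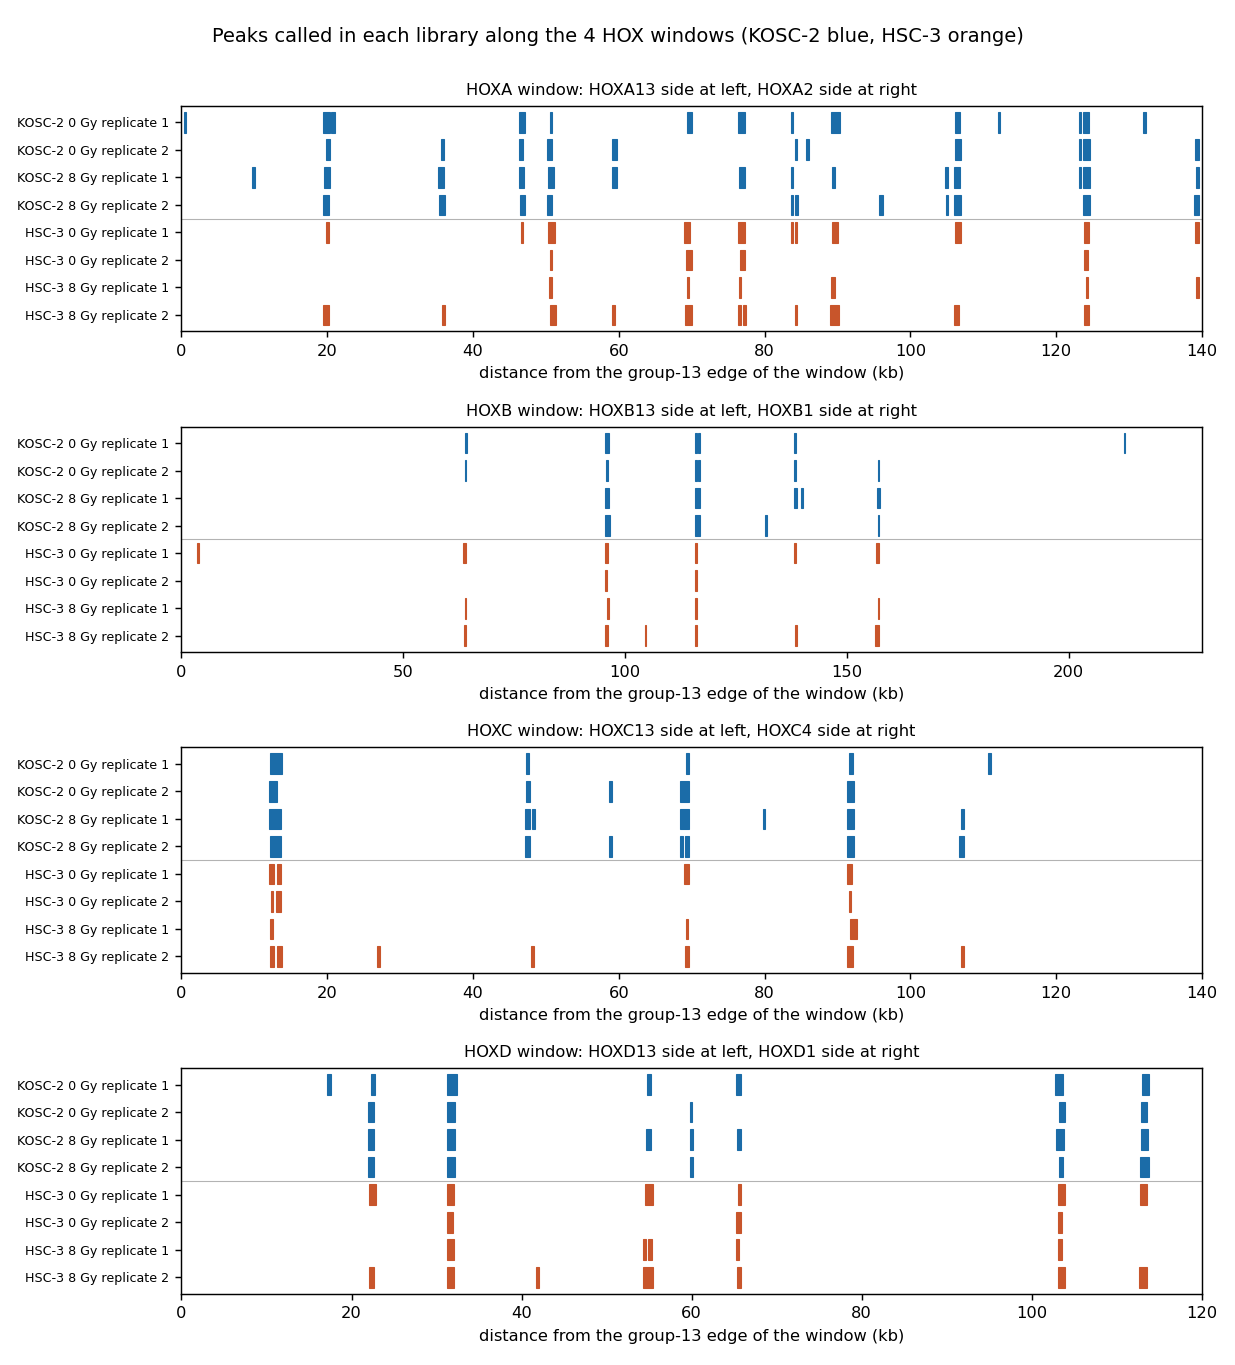
Peaks called in each of the 8 libraries (rows, KOSC-2 in blue and HSC-3 in orange) along the 4 windows, with distance from the group 13 edge in kb on the x axis and each bar drawn from the start to the end of a peak. Taken over all libraries, HOXA peaks are spread over the whole 140 kb. HOXB has 3 stretches of 31.0 to 59.6 kb without a peak in any library.

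The covered share of a window was divided by the share of the genome covered by all peaks of the same list, so that 1 is the genome-wide mean of that list and the length of the list is taken out. HOXA was the densest cluster by this relative density. Values are listed below by line, with the 0 Gy libraries before the 8 Gy ones and replicate 1 before 2. In HOXA they were 8.56, 5.43, 6.30 and 6.36 in KOSC-2 and 6.69, 4.64, 4.04 and 6.72 in HSC-3. The highest value came from KOSC-2 0 Gy replicate 1 and the lowest from HSC-3 8 Gy replicate 1, and the lines overlapped. HOXA genes include HOXA9, which sustains blood progenitors, and HOXA10 and HOXA11 of the limb and uterus.

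HOXD followed with 5.93, 3.57, 4.05 and 3.76 in KOSC-2 and 5.18, 4.26, 5.47 and 6.09 in HSC-3. HSC-3 held 3 of the 4 highest values, and the lines overlapped through KOSC-2 0 Gy replicate 1. HOXD genes at the group 13 end pattern the digits. HOXC held 3.35, 3.69, 4.18 and 4.80 in KOSC-2 and 2.53, 2.97, 3.38 and 3.62 in HSC-3. Its lines overlapped only in the range from 3.35 to 3.62, with KOSC-2 otherwise above HSC-3. No cluster had lines that did not overlap, where 9.86% of the tiles and windows did with KOSC-2 higher and 8.92% with HSC-3 higher.

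HOXB was the sparsest, with 1.89, 1.38, 1.64 and 1.73 in KOSC-2 and 1.97, 1.01, 1.65 and 1.89 in HSC-3. Its lowest value was that of HSC-3 0 Gy replicate 2, a short list with 2 peaks in the window. The HOXB window also holds the long interval between HOXB13, a factor of the prostate and colon, and HOXB9, which carries no other gene of the family.

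Over the 8 libraries the mean relative density was 6.09 ± 1.40 (SD, n = 8) in HOXA, 4.79 ± 0.999 in HOXD, 3.56 ± 0.7 in HOXC and 1.65 ± 0.318 in HOXB. HOXA exceeded HOXB and HOXC in each library, and HOXC exceeded HOXB in each. HOXA exceeded HOXD in 7 libraries, the exception being HSC-3 8 Gy replicate 1. These were ranked among the 14415 tiles of 150 kb covered in at least 2 libraries, whose median was 1.08. HOXA stood above 99.6% of them, HOXD above 98.3%, HOXC above 93.8% and HOXB above 66%. Tiles covered in fewer libraries were left out of this ranking. Flanks of the same length on both sides averaged 1.03 ± 0.521 for HOXA, 1.32 ± 0.240 for HOXD, 0.737 ± 0.523 for HOXC and 1.75 ± 0.204 for HOXB. The HOXA, HOXC and HOXD windows were denser than their flanks in all 8 libraries, and the HOXB window was not denser on average.

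**Figure D2:**
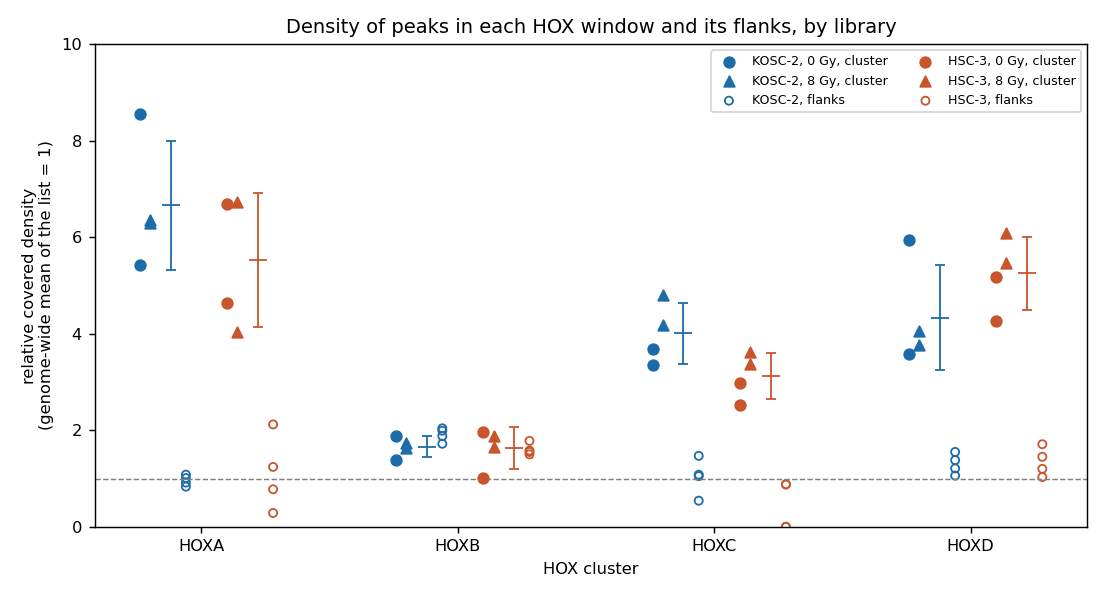
Relative covered density (y axis, genome-wide mean of each list = 1) of the 4 HOX windows in each library, with circles for 0 Gy, triangles for 8 Gy, open circles for the flanks, and the mean ± SD of the 4 libraries of a line as bars. HOXA reaches 4.04 to 8.56 against flanks of 0.287 to 2.12, while HOXB stays between 1.01 and 1.97.

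The lines were compared by limma's moderated test on log2(relative density + 1), fitted over 14419 tiles and windows covered in at least 2 libraries, with Benjamini-Hochberg adjustment over all of them. By this test 4.11% of the rows were higher in KOSC-2 and 2.39% lower at an adjusted p under 0.05, and 0 of the 4 clusters were called. The difference of KOSC-2 minus HSC-3 on this log2 scale was 0.28 (SE 0.123) in HOXC, with an adjusted p of 0.188 and an unadjusted p of 0.0521. It was 0.24 (SE 0.201) in HOXA, with an adjusted p of 0.456. HOXB differed by 0.03 (SE 0.160, adjusted p = 0.922) and HOXD by -0.24 (SE 0.162, adjusted p = 0.364). A p above the threshold does not show that the lines are alike. HOXC was higher in KOSC-2 under all 17 alternative settings tried, between 0.24 and 0.80, with a lowest adjusted p of 0.1. Dropping the filter on covered libraries, adding the replicate number or testing by exact permutation changes only the p, never the estimate. The direction in HOXA turned without the 2 short HSC-3 lists (-0.02), and that in HOXD turned where the covered share was not scaled to the list (0.25). With each library left out HOXA ran from 0.09 without HSC-3 8 Gy replicate 1 to 0.40 without HSC-3 8 Gy replicate 2, and HOXD from -0.39 without KOSC-2 0 Gy replicate 1 to -0.09 without KOSC-2 0 Gy replicate 2. HOXB turned under 5 of the 17, for example without HSC-3 0 Gy replicate 2 (-0.11).

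Irradiation was compared within each line by the same fit, as 2 libraries against 2. By this test 0% of the rows of the genome were called in either line, in either direction, while 2.39% of the rows in KOSC-2 and 4.85% in HSC-3 had an unadjusted p under 0.05. None of the 4 clusters did. HOXC had the higher mean density at 8 Gy in both lines, by 0.28 in KOSC-2 (SE 0.173) and 0.27 in HSC-3 (SE 0.173) on the log2 scale, each with an adjusted p of 1. In each line both irradiated libraries lay above both unirradiated ones in HOXC. With 2 libraries against 2 such an order can easily arise by chance. The share of all tiles with the same order was not counted, so no dose effect is read from it. With lists cut to equal length the HOXC difference was -0.11 in KOSC-2 and 0.01 in HSC-3. HOXA differed by -0.10 and -0.08 (SE 0.284 each) and HOXB by 0.03 and 0.18 (SE 0.226 each), in KOSC-2 and HSC-3. With lists of equal length the HOXB difference in KOSC-2 was 0.60 (adjusted p = 0.583, unadjusted p = 0.00902). HOXD differed by -0.20 in KOSC-2 and 0.25 in HSC-3 (SE 0.229 each). Under 17 alternatives HOXA turned in 4 for each line, HOXB in 1 for KOSC-2 and 3 for HSC-3, and HOXD in 3 for KOSC-2. Settings that change only the p, or leave out a library of the other line, could not turn a difference. The difference between the HOXD effects, -0.45 (SE 0.324), had an adjusted p of 1, as did the difference of the dose effects in the other 3 clusters. The HOXD value was -0.15 without KOSC-2 0 Gy replicate 1 and -0.75 without KOSC-2 0 Gy replicate 2. At an unadjusted p under 0.05 that test called 0 clusters, against 2.7% of the rows.

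Most classes of region held a share of the HOX regions near that of the genome. Of the 51 HOX regions, 8 (15.7%) were called in all 8 libraries, where 15.9% of all regions were, with 2 in each cluster. Without the 2 short HSC-3 lists 13 regions were called in every library (26.3% of all regions), and without the 3 libraries of lowest enrichment 14 were (29%). With lists cut to equal length there were 4. There were 17 regions called in 1 library only, against 31.9% of all, and 29 called in at least 1 library of each line, against 51.8%. KOSC-2 libraries alone called 18 regions, against 32% of all, and HSC-3 libraries alone called 4, against 16.2%. HOXA gave 9 of these 18 and none of the 4.

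The strongest HOX region lay 12.9 kb from the HOXC13 edge (chromosome 12, 54332073 to 54333767). At 1695 bp it was also the widest of the 51. HOXC13, which regulates keratin genes of hair and nail, is the first gene in order at that end. Reads piled up at its summit to 89, 119, 127 and 119 in KOSC-2 and to 56, 18, 38 and 43 in HSC-3. Its percentile, the share of peaks of the same list with a smaller −log10 p, was 94, 99.2, 98.8 and 99.1 in KOSC-2 and 91.1, 37, 81.3 and 84.5 in HSC-3. In 7 libraries it thus stood at 81.3 or above, and it was weaker in HSC-3 0 Gy replicate 2, at 37. Depth was 20.2 reads per 10 kb in that library and 20.7 in HSC-3 8 Gy replicate 2, where the region stood at 84.5. The part of depth was not tested. Pileups and percentiles are relative to one library and one list and are not compared between lines.

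The other HOXC region called in every library lay at 92.0 kb (54411287 to 54412662, 1376 bp), with percentiles of 70 to 86.7 in KOSC-2 and 32.9 to 45.2 in HSC-3. The region at 69.1 kb was missing only from HSC-3 0 Gy replicate 2.

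In HOXD the leading region lay 31.8 kb from the HOXD13 edge (chromosome 2, 176971169 to 176972446, 1278 bp). It was the most even of the HOX regions called in all libraries, with percentiles of 78.4, 78.6, 81.5 and 76.1 in KOSC-2 and 84.7, 77.8, 83.0 and 85.1 in HSC-3. Its neighbour at 22.4 kb (176961947 to 176962926) stood between 62.1 and 78.3 in the 6 libraries that called it and was missing from both short HSC-3 lists. The region at 103.3 kb (177042726 to 177043914), on the HOXD1 side, was called in all 8 at percentiles of 22.1 to 76.7.

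In HOXA the regions called in all libraries lay at 124.2 kb (chromosome 7, 27135288 to 27136321), towards the HOXA2 side, and at 50.8 kb (27208667 to 27209825). HOXA2 specifies the pharyngeal arch that forms parts of the ear and hyoid. The region at 124.2 kb had percentiles of 67.1, 82.5, 82.3 and 87.2 in KOSC-2 and 69.5, 44.6, 1.91 and 83.3 in HSC-3. Its lowest value, close to the call limit, came from HSC-3 8 Gy replicate 1, the library of lowest enrichment. In that library the HOXD region at 31.8 kb stood at 83. The part of enrichment was not tested. The region at 50.8 kb was close to the call limit in both short HSC-3 lists, at 0.971 and 8.78, and between 37.3 and 64.8 elsewhere. The region at 19.9 kb (27239571 to 27240587) was called in all KOSC-2 libraries and in the 2 long HSC-3 lists. The region at 76.9 kb (27182611 to 27183686), second in HOXA by mean percentile, was called in all 4 HSC-3 libraries, at 70.2, 37, 54.7 and 85.6, and in replicate 1 of each dose in KOSC-2, at 25.4 and 43.4. The widest HOXA region, at 89.7 kb (27169582 to 27170964, 1383 bp), was called in 2 KOSC-2 and 3 HSC-3 libraries.

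In HOXB the regions called in all libraries lay at 116.3 kb (chromosome 17, 46703081 to 46704318, 1238 bp) and 96.0 kb (46723509 to 46724577), both in the middle of the window. Percentiles ran from 24.5 to 83.5 in the former and from 18.2 to 61.7 in the latter, with the lowest value of each in HSC-3 8 Gy replicate 1. The region at 156.9 kb (46662636 to 46663594) was called in 3 libraries of each line, between 42.2 and 82.1.

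**Figure D3:**
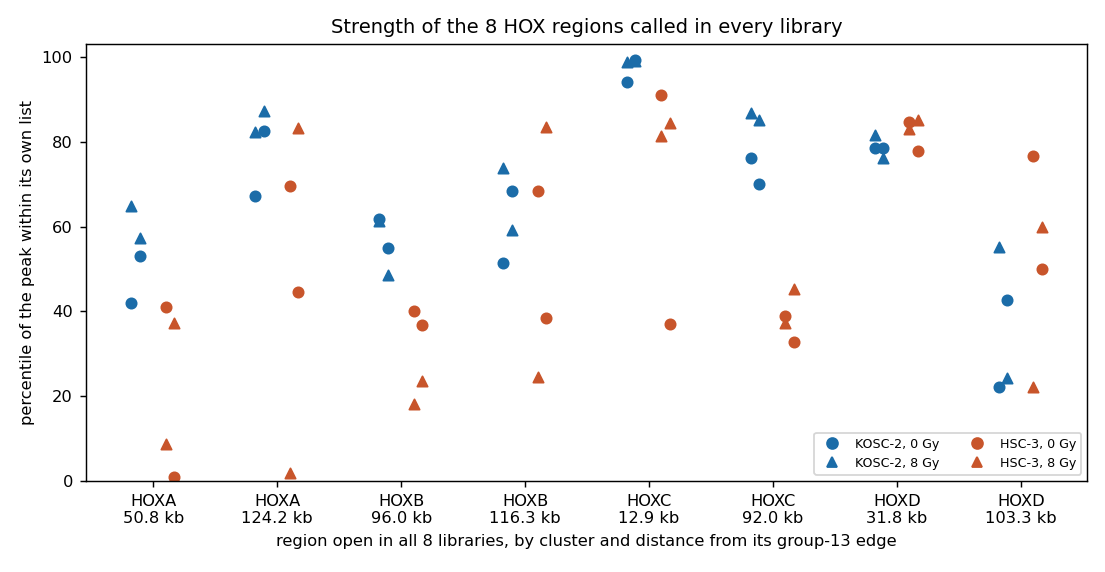
Percentile of the peak within its own list (y axis, 0 to 100) for the 8 HOX regions called in every library (x axis, by cluster and distance in kb from the group 13 edge), with circles for 0 Gy and triangles for 8 Gy. The HOXD region at 31.8 kb stays within 76.1 to 85.1, while the HOXA region at 124.2 kb runs from 1.91 to 87.2.

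HOX regions as a whole were wider and stood lower in their lists than regions in general. Their median width was 645 bp, against 474 bp over all regions, and the 8 called in every library had a median of 1214 bp, against 952 bp. The median percentile of their calls was 41.1, against 50.6 over all regions, and for the 8 it was 61.5, against 80.4. By cluster the median percentile was 36.7 in HOXA, 40 in HOXB, 41.6 in HOXC and 51.2 in HOXD, so HOXD did not stand lower, and the 2 HOXC regions called in every library had 82.9. These are descriptions with no test. The local background the peaks were called against also differed: its median over HOX peaks was 3.34 to 4.37 times the lowest level of the same list, against 2.07 to 2.85 over all peaks, in the 8 libraries. In HOXD it was below the median over all peaks in 3 libraries and in HOXB in 2, and over the regions called in all 8 libraries it was 2.49 to 4.93. Its part in the lower percentiles was not tested.

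One region was called in all 4 KOSC-2 libraries and in no HSC-3 library, against 2.07% of all regions. It lay 47.5 kb from the HOXC13 edge (chromosome 12, 54367128 to 54367861). Its pileups were 27, 24, 25 and 25 reads and its percentiles 22.6, 35.6, 24.9 and 44.9. It was of middling to low rank in each of these lists. A separate region close beside it, at 48.3 kb (54368021 to 54368571), was called in KOSC-2 8 Gy replicate 1 and in HSC-3 8 Gy replicate 2. Its percentiles there were 0.93 and 3.46. The region at 47.5 kb stayed the only HOX region of its class without the 2 short HSC-3 lists (2.3% of all regions). It did not meet the rule with lists cut to equal length, where the class was empty. With the 3 libraries of lowest enrichment left out a region of HOXD at 60.0 kb joined it (5.61%). That HOXD region (chromosome 2, 176999756 to 177000176) was called in 3 KOSC-2 libraries, at percentiles of 17.1, 24.0 and 49.0, and was missing from KOSC-2 0 Gy replicate 1. The class also held 2 HOX regions without KOSC-2 0 Gy replicate 1 (5.27% of all regions), without KOSC-2 8 Gy replicate 2 (2.58%) or without HSC-3 0 Gy replicate 1 (3.29%).

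No HOX region was called in all HSC-3 libraries and no KOSC-2 library, against 0.3% of all. The closest lay at 69.5 kb in HOXA (chromosome 7, 27189950 to 27191061), with percentiles of 59.2, 36.7, 33.6 and 44.0 in HSC-3. In KOSC-2 it was called only in 0 Gy replicate 1, the deepest library, at 7.23. Without the 3 libraries of lowest enrichment, of which that is one, it met the rule (3.93% of all regions), and it did so without KOSC-2 0 Gy replicate 1 alone (0.511%). Counted more loosely, 4 regions were called in at least 3 more KOSC-2 than HSC-3 libraries, against 8.64% of all, and 1 in at least 3 more HSC-3 libraries, against 1.47%. There were 3 regions in 3 or 4 KOSC-2 libraries and no HSC-3 library (6.22% of all) and 0 of the reverse kind (1.11%). The 4 were those at 46.7 and 123.3 kb in HOXA, 47.5 kb in HOXC and 60.0 kb in HOXD.

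Regions that followed the dose were not rarer in KOSC-2 than among all regions. KOSC-2 had 2 regions (3.92%) present at 8 Gy in each library and absent at 0 Gy, against 3.51% of all. They lay at 105 kb in HOXA (chromosome 7, 27154782 to 27155281), with percentiles of 36.0 and 45.2, and at 107 kb in HOXC (chromosome 12, 54426623 to 54427415), with 38.6 and 44.5. The HOXC region was also called in HSC-3 8 Gy replicate 2, at 38.3. In the reverse direction 1 region (1.96%) was called in both unirradiated KOSC-2 libraries and neither irradiated one, against 0.87% of all. It lay at 64.0 kb in HOXB (chromosome 17, 46755534 to 46756470). Without the 3 libraries of lowest enrichment there were 2 such regions (6.46%). The region at 64.0 kb was called in 3 HSC-3 libraries, of which 2 were irradiated. With lists cut to equal length neither class held a HOX region. With 1 KOSC-2 library left out, so that 1 dose rests on a lone library, gained regions numbered 6 without 0 Gy replicate 2 (11.7% of all regions), 4 without 8 Gy replicate 1 (7.56%) and 6 without 8 Gy replicate 2 (13.6%). Lost ones then numbered 9 (8.13%), 3 (3.3%) and 1 (1.37%), and 2 without 0 Gy replicate 1 (6.46%). In HSC-3, 0 HOX regions were gained with dose, against 0.68% of all, and 0 were lost, against 0.957%. Among 51 regions, shares this small can leave a count of 0. Each of these HSC-3 groups holds a short list, and without them 7 regions counted as gained (12.5% of all) and 4 as lost (11.3%), with 1 library a group. Gained regions numbered 5 without HSC-3 0 Gy replicate 1 alone (5.42% of all) and 7 without 8 Gy replicate 1 alone (11.2%), and lost ones 3 without 0 Gy replicate 2 alone (10.6%).

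Along the clusters, the open parts were spread differently. In the 70 kb of HOXA farther from the HOXA13 edge the relative density was higher than in the nearer 70 kb in 8 of 8 libraries, with medians of 6.82 and 5.33. HOXB was likewise denser in the 115 kb farther from HOXB13, in 7 libraries, with medians of 2.07 and 1.35. HOXC went the other way: the 70 kb on the HOXC13 side were denser in 7 libraries, with medians of 4.87 and 2.12. In HOXD the 60 kb on the HOXD13 side were denser in 7 libraries, with medians of 5.01 and 4.22. The library that departed was HSC-3 0 Gy replicate 2 in HOXB and HOXD and HSC-3 8 Gy replicate 1 in HOXC, the 2 short lists.

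Stretches of at least 20 kb without a peak in any of the 8 libraries were found in 3 clusters. How common such stretches are elsewhere was not counted. The 80588 regions of all chromosomes used lie over 3033 Mb, so gaps of this size need not be unusual. HOXB had 3. They spanned 59.6 kb from 3.9 to 63.5 kb (46756471 to 46816120), 31.0 kb from 64.5 to 95.4 kb (46724578 to 46755533), and 55.1 kb from 157.4 to 212.4 kb (46607585 to 46662635). All HOXB regions called in more than 1 library therefore lay between 63.5 and 157.4 kb. HOXC had one of 29.0 kb, from 111 kb to the end of the window on the HOXC4 side (54431023 to 54460000), and HOXD one of 36.9 kb, from 65.8 to 102.7 kb (177005842 to 177042725). HOXA had none. A stretch without a peak is one in which no pileup passed the limit of peak calling, not one without reads.

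Each window was then cut into bins of 10 kb, 63 in all, of which 41 held a peak in at least 1 library and 22 in none. The empty bins numbered 14 in HOXB, 4 in HOXC and 4 in HOXD. Of 30 bins covered in at least 2 libraries, 13 were in HOXA, 5 in HOXB, 6 in HOXC and 6 in HOXD, and 9 were covered in all 8. Under limma over all 51050 such bins of the genome, 3.31% were higher in KOSC-2 and 0.764% lower at an adjusted p under 0.05, and 0 of the 30 HOX bins were called. At an unadjusted p under 0.05 there were 3 HOX bins, where 19.2% of all bins passed. The exact permutation test of 4 against 4 libraries called 0 bins anywhere after adjustment. Its unadjusted p cannot go below 0.0286, so a call after adjustment over 51050 bins was all but out of reach. The median difference of the 30 bins, KOSC-2 minus HSC-3, was 0.57 on the log2 scale, against 0.19 over all bins.

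Bins whose lines did not overlap were picked out after their values were seen. There were 3 with KOSC-2 higher, where 5.4% of all bins were, and 0 with HSC-3 higher, where 5% were. The HOXA bin at 40 to 50 kb (27210001 to 27220000) held relative densities of 10.9, 6.93, 7.45 and 9.14 in KOSC-2 and 4.09, 0, 0 and 0 in HSC-3. Its difference was 2.66 (SE 0.561), with a limma adjusted p of 0.0627. It ran, with each library left out, from 0.0102 without HSC-3 0 Gy replicate 1 (7.4% of all bins called) and 0.0341 without HSC-3 0 Gy replicate 2 (4.24%) to 0.226 and 0.278 without KOSC-2 8 Gy replicate 1 and 2. The HOXC bin at 40 to 50 kb (54360001 to 54370000), which holds the KOSC-2 region described above, had 5.73, 6.50, 12.5 and 8.60 in KOSC-2 and 0, 0, 0 and 4.62 in HSC-3. Its difference was 2.55 (SE 0.581), with a limma adjusted p of 0.0742. It ran, with each library left out, from 0.00998 without HSC-3 8 Gy replicate 2 (7.12% of all bins called) and 0.0324 without HSC-3 8 Gy replicate 1 (4.45%) to 0.284 and 0.275 without KOSC-2 8 Gy replicate 1 and 2. In both bins HSC-3 had a peak in 1 long list and none in the short ones. The HOXB bin at 110 to 120 kb (46700001 to 46710000) was covered in every library, at 11.5 to 15.5 in KOSC-2 and 6.93 to 10.4 in HSC-3, with a difference of 0.59 (SE 0.281) and an adjusted p of 0.363.

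Toward HSC-3 the largest difference was in the HOXA bin at 60 to 70 kb (27190001 to 27200000). It held 11.7, 20.3, 8.47 and 11.8 in HSC-3 and 9.30, 0, 0 and 0 in KOSC-2. The difference was -2.91 (SE 0.763), with a limma adjusted p of 0.115. This was 0.00806 without KOSC-2 0 Gy replicate 1, the only KOSC-2 library with a peak there (8.5% of all bins called), but 0.322 and 0.383 without KOSC-2 8 Gy replicate 1 and 2 and 0.431 without the 2 short HSC-3 lists. It stood next to the bin at 70 to 80 kb, which was covered in 2 KOSC-2 and 4 HSC-3 libraries and differed by -2.02 (SE 1.07, adjusted p = 0.402). HOXA thus held bins on both sides. The 5 within 50 kb of the HOXA13 edge each had a higher mean in KOSC-2. So did every bin from 90 to 140 kb, for example 12.2 against 4.74 at 100 to 110 kb. Means were higher in HSC-3 from 50 to 90 kb, though at 80 to 90 kb the log2 difference was 0.34. The median difference over all bins also leaned to KOSC-2, at 0.19. The 2 bins from 60 to 80 kb kept their direction under all 17 alternatives, though those that change only the p could not turn it. Of the 5 within 50 kb of the HOXA13 edge, the bin at 10 to 20 kb turned to -0.10 without the 3 libraries of lowest enrichment. The others kept their direction where they could be fitted. That was in 12 alternatives for the bin at 0 to 10 kb, 17 for that at 20 to 30 kb and 16 each for those from 30 to 50 kb. None of these passed the test as reported. The calls depended on the libraries and settings: with only peaks of a −log10 q of at least 5, 4 HOX bins passed, among them those at 40 to 50 kb in HOXA and HOXC and that at 60 to 70 kb in HOXA, at an adjusted p of 0.00352. The share of all bins called was then 4.28%. Without the 2 short HSC-3 lists 2 passed (12% of all bins in either direction), and without the 3 libraries of lowest enrichment 3 did (7.83%).

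**Figure D4:**
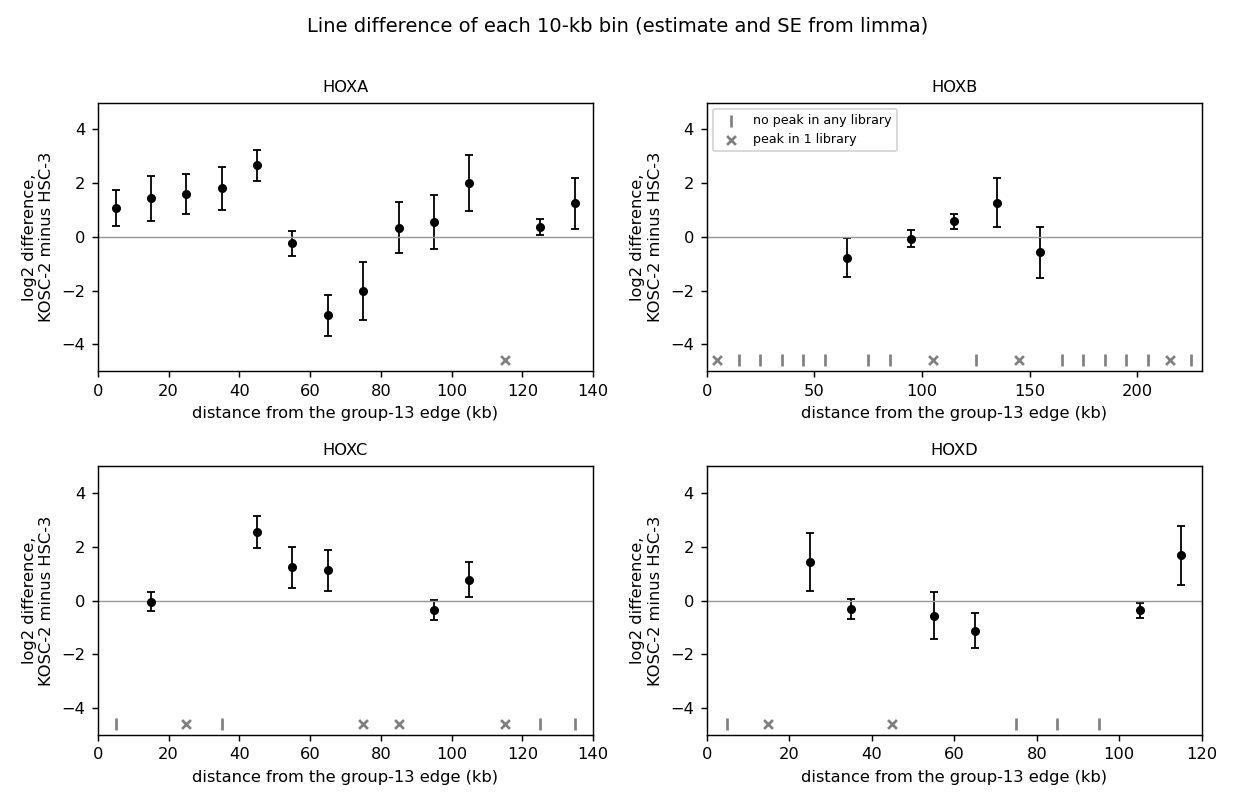
Difference between the lines (y axis, KOSC-2 minus HSC-3, log2 of relative density + 1) of each 10-kb bin along the 4 windows (x axis, distance in kb from the group 13 edge), with points and bars for limma's estimate and SE and grey marks for bins with no peak or with a peak in 1 library. HOXA runs from 2.66 at 40 to 50 kb to -2.91 at 60 to 70 kb, and 22 of the 63 bins hold no peak.

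For dose, 0 of the 30 HOX bins were called in KOSC-2, where 2.19% of all bins were higher at 8 Gy and 0.513% lower, and 0 in HSC-3, where 0% of bins were called in either direction. At an unadjusted p under 0.05 there were 2 HOX bins in KOSC-2, where 4.83% of all bins passed, and 0 in HSC-3, where 2.87% did. One was the HOXC bin at 100 to 110 kb, which holds the region gained there, with 0 and 0 at 0 Gy and 4.37 and 9.52 at 8 Gy, a difference of 2.91 (SE 0.921, adjusted p = 0.617). Its adjusted p with each library left out ran from 0.0481 without HSC-3 8 Gy replicate 2, where 3.49% of all bins were called, to 1 without KOSC-2 0 Gy replicate 1 or either KOSC-2 8 Gy library. The other was the HOXB bin at 60 to 70 kb, which holds the region lost there, with 8.48 and 5.18 at 0 Gy and 0 and 0 at 8 Gy, a difference of -2.94 (SE 1.03, adjusted p = 0.765). Its adjusted p with each library left out ran from 0.0494 without HSC-3 0 Gy replicate 1, where 3.19% of all bins were called, to 1 without KOSC-2 0 Gy replicate 1 or either KOSC-2 8 Gy library. With lists of equal length no KOSC-2 difference was left there (0.00). Those HSC-3 libraries enter only through the shared spread. In HSC-3 the same HOXB bin held 7.90 and 0 at 0 Gy and 8.55 and 4.80 at 8 Gy. The difference of the dose effects between the lines in that HOXB bin was -4.26 (SE 1.45), with an adjusted p of 0.571 and, over its alternatives, of 0.00217 with lists of equal length (5.24% of all bins called) to 1. As reported, no HOX bin passed that test, and this was the single one with an unadjusted p under 0.05, against 5.24% of all bins. The HOXA bin at 80 to 90 kb held 18.8 and 0 at 0 Gy and 12.3 and 17.1 at 8 Gy in HSC-3, a difference of 1.80 (SE 1.35, adjusted p = 0.953). Without HSC-3 0 Gy replicate 1 it passed (adjusted p = 0.0437, where 4.02% of all bins were called), and without HSC-3 0 Gy replicate 2 the difference was -0.35 (adjusted p = 0.942).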

How the data were processed

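ATAC-seq peaks of 8 libraries were used, 2 for each line and dose, with groups and replicate numbers from the labels. MACS2 2.2.6 and Bowtie2 2.3.4.2 are named in the submitters' processing notes, along with hg19 as the build, FastQC 0.11.7, deepTools and SAMtools 1.9, but without roles or parameters. Handling of duplicates, blacklisted regions and the Tn5 offset is not given in the sources used here. Each library had its own deposited list in the narrowPeak layout, and no pooling is stated.

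For each peak the authors deposited a score (10 times the −log10 q without its decimals), a ratio (fold enrichment of the summit over that library's background), and the summit's −log10 p and −log10 q. These values are relative to one library and served only to rank, filter or describe peaks of one list. Pileup and background at the summit were recovered from fold and p, for 100% of peaks within 0.0001 of the deposited −log10 p, searching pileups from 2 to 400. The lowest background of a list gave its depth. No read totals were used, so no interval was computed. The lowest −log10 q was 2.02 and the narrowest peak was 300 bp.

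Peaks on chromosomes 1 to 22 and X were kept, and 590 on other sequences were left out. Peaks sharing at least 1 bp were merged. Tiles of 150 kb, with the 4 windows in place of those they overlap, and bins of 10 kb were fitted with limma 3.58.1 (R 4.3.3) on log2(relative density + 1), rows covered in at least 2 libraries, 4 group means sharing one spread, and a Benjamini-Hochberg threshold of 0.05. The rest was done in Python 3.11.15 (pandas 2.3.3, numpy 2.4.6, matplotlib 3.10.9, scipy 1.17.1). The scripts were tested on simulated data.

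Regions named were, in each cluster, the 3 of highest mean percentile over the 8 lists (0 where not called) and the widest, those of a line-only or dose class, and any bin past the threshold. Regions and bins beyond these were named after their values were seen. The members, windows and lists were chosen with earlier results of these data known. Genes were matched to GRCh38.p14 for names, order and promoters only, and the PBX, MEIS and other partner genes considered at the start were not analysed here, since they need positions in hg19.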

Additional observations from a re-analysis of the deposited data

How the results depend on the processing

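Over 501 values under alternatives, 390 kept their direction and their side of the threshold or moved little, 53 counts moved and 45 differences turned sign. The other 13 values, of 4 bins named above, passed the threshold between the lines. Further HOX bins passed under some alternatives and enter only through the counts of bins called. The 390 include values that could not differ, from settings that change only the p or, for dose, leave out a library of the other line. No cluster difference passed in any alternative, and these 45 sign changes all concern cluster differences that had not passed. Line differences of some single bins also turned, while those of others kept their direction. The HOXC bin at 10 to 20 kb turned in 7 alternatives and the HOXB bin at 90 to 100 kb in 6. The causes were not tested. For KOSC-2 minus HSC-3 (log2), HOXA became -0.12 with lists of equal length, -0.024 without the 2 short HSC-3 lists and -0.17 without the 3 libraries of lowest enrichment. HOXB became -0.14 and -0.21 in the latter pair and ranged from -0.11 to 0.17 with each library left out in turn, and HOXD became 0.25 unscaled. For dose in KOSC-2, HOXA became 0.090 with equal lengths, 0.08 unscaled and 0.19 without the 3 libraries, HOXC -0.11 and HOXD 0.10 with equal lengths, and HOXD 0.10 without the 3 libraries. With each library left out in turn, HOXA ranged from -0.38 to 0.19, HOXB from -0.11 to 0.18 and HOXD from -0.50 to 0.10. For dose in HSC-3, HOXA was 0.0052 and HOXB -0.037 without the 2 short lists and likewise 0.0052 and -0.037 without the 3 libraries, and with each library left out they ranged from -0.38 to 0.23 and from -0.10 to 0.46. For the dose effect in KOSC-2 minus that in HSC-3, HOXA became 0.36 at −log10 q of at least 5, 0.37 with equal lengths, 0.11 unscaled and 0.18 without the 3 libraries, and HOXB 0.40 with equal lengths, 0.039 unscaled, 0.070 without the short lists and 0.21 without the 3 libraries. HOXC became -0.15 at −log10 q of at least 5, -0.12 with equal lengths, -0.11 without the short lists and -0.16 without the 3 libraries. With each library left out, HOXA ranged from -0.33 to 0.29, HOXB from -0.43 to 0.13 and HOXC from -0.071 to 0.10. HOXD, -0.45 as reported, kept its direction, from -0.75 without KOSC-2 0 Gy replicate 2 to -0.15 without KOSC-2 0 Gy replicate 1, and was -0.044 with equal lengths and -0.098 without the 3 libraries.

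HOX bins called between the lines, 0 as reported, were 4 at −log10 q of at least 5, 3 with equal lengths (22504 peaks, 9.64% of all bins), 2 unscaled, 2 without the short lists, 3 without the 3 libraries and 0 to 1 with each library left out. For dose they were 0 to 1 in KOSC-2 and 0 to 1 in HSC-3 with each library left out, and 1 in HSC-3 (3.05% of all bins) and 1 for the difference of dose effects (5.24%) with equal lengths. The HOXA and HOXC bins at 40 to 50 kb were not tested with equal lengths, as too few libraries covered them. Bins with 0 in several libraries have a small spread, which limits trust in such calls. Over the whole genome 2078 bins were called between the lines as reported, 3718 unscaled, 3620 with a pseudocount of 0.25, 4196 without KOSC-2 0 Gy replicate 1, 3580 without HSC-3 0 Gy replicate 1, 3437 without HSC-3 8 Gy replicate 2, 5995 without the short lists and 3779 without the 3 libraries. For dose in KOSC-2, 1381 bins were called as reported, 2114 without the short lists and 0 without any one KOSC-2 library, without HSC-3 0 Gy replicate 2, without the 3 libraries, with no filter and with the replicate block.

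Regions called in all libraries numbered 4 with equal lengths, 1 with at least 50% of the region covered, 1 with only peaks above the 50th percentile, 13 without the short lists and 14 without the 3 libraries. KOSC-2-only regions numbered 2 at −log10 q of at least 5, 0 with equal lengths, 3 at 50% covered, 3 with calls in 3 of 4 libraries, 2 without the 3 libraries and 1 to 2 with each library left out. HSC-3-only regions numbered 1 at −log10 q of at least 5, 2 with equal lengths, 1 without the 3 libraries and 0 to 1 with each library left out. Regions gained in KOSC-2 numbered 0 with equal lengths, 1 above the 50th percentile and 2 to 6 with each library left out, and those lost 0 with equal lengths, 0 at 50% covered, 0 above the 50th percentile, 2 without the 3 libraries and 1 to 9. Regions gained in HSC-3 numbered 1 at −log10 q of at least 5, 1 with equal lengths, 7 without the short lists, 7 without the 3 libraries and 0 to 7 with each library left out, and those lost 4 without the short lists, 4 without the 3 libraries and 0 to 3.

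The replicate numbers share no stated source, and deviations of same-numbered libraries correlated between -0.186 and 0.079 over bins. With the replicate block the line difference of HOXC was 0.28 (limma adjusted p = 0.224), 0 HOX bins were called between the lines, and no call in the HOX clusters changed. The exact permutation test was not run for the difference of dose effects. Leaving out 1 library of a dose group assumes that the lone library varies like the others. The 2 alternatives that leave out short or weakly enriched lists were chosen after seeing the data.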
